A study of Ovis aries with 4 samples.

Results

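Collagens, laminins and the ADAMTS proteins build and cut the extracellular matrix, the protein meshwork between cells and around blood vessels. The genes described here are those whose symbol in the gene list of the nuclei libraries is COL followed by a number, A and a number, or LAMA, LAMB or LAMC followed by a number, or begins with ADAMTS. The rule found 70 of the 26478 listed genes: 40 collagen genes, 10 laminin genes and 20 ADAMTS genes, of which 4 encode ADAMTS-like proteins. The series compared whole cells with isolated nuclei as starting material for sequencing the RNA of single droplets from frozen striatum, a deep forebrain region, from 4 sheep aged 5 years, whose breed and sex the labels do not give. Whole cells were released with papain, an enzyme that digests protein, and nuclei by homogenising tissue in a detergent buffer. Each kind of library had 2 replicates, replicate 1 from the pool of sheep 1 and 2 and replicate 2 from the pool of sheep 3 and 4, so that a library is a mixture of 2 animals. For the second suspension of whole cells the protocol names animals 2 and 3, where the title has sheep 3 and 4, and the title was followed.

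Laminins join an alpha, a beta and a gamma chain and, with the sheet-forming collagen IV, make up the basement membrane around brain vessels. Fibrillar collagens form the fibrils of the meninges and vessel walls, fibril-associated collagens decorate them, and a few collagens stay anchored in the cell membrane. ADAMTS enzymes are secreted metalloproteinases: some cleave lecticans, the main proteoglycans of the brain matrix, and others trim procollagens, while ADAMTS-like proteins lack the protease domain.

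The values are counts of unique molecular identifiers (UMIs), each of which marks 1 captured RNA molecule. The whole cells libraries held 1115058 and 19241918 UMIs, of which 125974 and 2512837 came from genes other than mitochondrial ones, and the nuclei libraries held 70473292 and 51102420. Neither whole cells library had a barcode, the tag of a droplet, that reached 200 genes with no more than 5% of its UMIs mitochondrial, while the nuclei libraries had 8700 and 8388. The members together had only 92 and 1066 UMIs in the whole cells libraries, against 134572 and 114842 in the nuclei libraries. Each of the 6 pairs of libraries shared between 2 and 87 barcodes. Cell classes were therefore described in nuclei alone, 8004 and 7717 of them after the highest doublet scores were left out.

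Clustering without the member genes gave 7 classes named from marker genes: oligodendrocyte-like, oligodendrocyte precursor-like, astrocyte-like, microglia-like, medium spiny neuron-like, interneuron-like and vascular and fibroblast-like nuclei. They are called by the cell type alone from here on. A further 896 and 422 nuclei (11.2% and 5.47%) stayed unnamed and enter no comparison between classes. The vascular and fibroblast class was small, with 41 and 27 nuclei and 67649 and 27655 UMIs, and also carried 8 raised markers of lymphocytes. Of the 161 and 211 interneuron nuclei, 10 and 49, with 16.7% and 45.7% of the class's UMIs, formed a cluster with the markers of excitatory neurons at a finer clustering (Leiden resolution 1.0). Interneuron values are therefore also given without these nuclei, an alternative added after the data were seen, where they bear on a result. Levels are CPM, the UMIs of a gene over all UMIs of the class in a library, scaled to a total of 1000000. Brackets give exact Poisson 95% intervals, which cover counting error only. With 1 library per animal pool in each class, and classes built from the same nuclei, no test was made between classes.

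The matrix genes had their highest summed level in the vascular and fibroblast nuclei. Few of the member UMIs lay there, with 956 and 280, against 73487 and 57213 in medium spiny neurons. Summed over all 70 members, the vascular and fibroblast class had 14132 and 10125 CPM in replicates 1 and 2, of which LAMA2 made up 55.2% and 51.8%. Without LAMA2 it had 6327 and 4882. Oligodendrocytes had 2755 and 2880, oligodendrocyte precursors 2691 and 2839, interneurons 2178 and 2649, astrocytes 1747 and 1835, and medium spiny neurons 1688 and 2053. Microglia were lowest, with 400 and 532. The vascular and fibroblast class stood above and microglia below all others in both libraries, and of the classes between them only astrocytes and medium spiny neurons changed places between the libraries. LAMA2 alone made up 62.7% and 61.9% of the member UMIs of oligodendrocytes, which without it had 1027 and 1096 CPM, below every class but microglia. Without the excitatory neuron nuclei, interneurons had 2245 and 2475.

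A gene was called leading in a class when that class had its highest level in both libraries, at least 2-fold above the next class, with at least 10 UMIs over both libraries and 3 in each. Of the 70 members, 65 had enough UMIs in some class to be called, and 22 were leading in a class, against 14.0% of the 17574 genes that could be called. The vascular and fibroblast class led for 8 members (1.49% of all genes that could be called led there). Astrocytes led for 5 (2.46%), oligodendrocytes for 3 (1.94%), oligodendrocyte precursors for 2 (0.922%), interneurons for 2 (1.17%), medium spiny neurons for 2 (1.59%) and microglia for 0 (4.42%). With replicate 2 alone, 4 members led in the vascular and fibroblast class, since the calls of LAMB2, LAMC3, COL13A1 and COL23A1 were lost. These genes had 4 or 5 UMIs there in replicate 2, below the 10 asked. Without the excitatory neuron nuclei 26 members were leading (14.5% of all genes), the added calls being ADAMTS20 and COL24A1 in medium spiny neurons and ADAMTS18 and COL15A1 in interneurons.

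The vascular and fibroblast class was too shallow to place every call against it, since a count of 0 there allows up to 44.3 and 108 CPM. ADAMTS4, ADAMTS7, COL5A3, COL9A3 and COL28A1 had 0 UMIs there and stayed below those limits in the class called leading, in both libraries, so their order against vascular and fibroblast nuclei was not detectable at this depth. The same held in replicate 2 for COL19A1 and ADAMTS16 and, among the added calls, for COL15A1 and COL24A1. ADAMTS18, COL5A1, COL6A3 and COL22A1 had 1 or 2 UMIs there in replicate 2, with intervals reaching above their leading level. For ADAMTS18 the same held in replicate 1, where it had 2 UMIs there and a leading level of 73.5 CPM. The class with the highest level was the same in both replicates for 43 of the 65 members, against 54.8% of all genes. Relative to the mean of the other classes, the median member stood at a log2 difference of 0.20 in vascular and fibroblast nuclei and -2.71 in microglia, against -0.73 and -0.05 for the median over all genes.

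**Figure D1:**
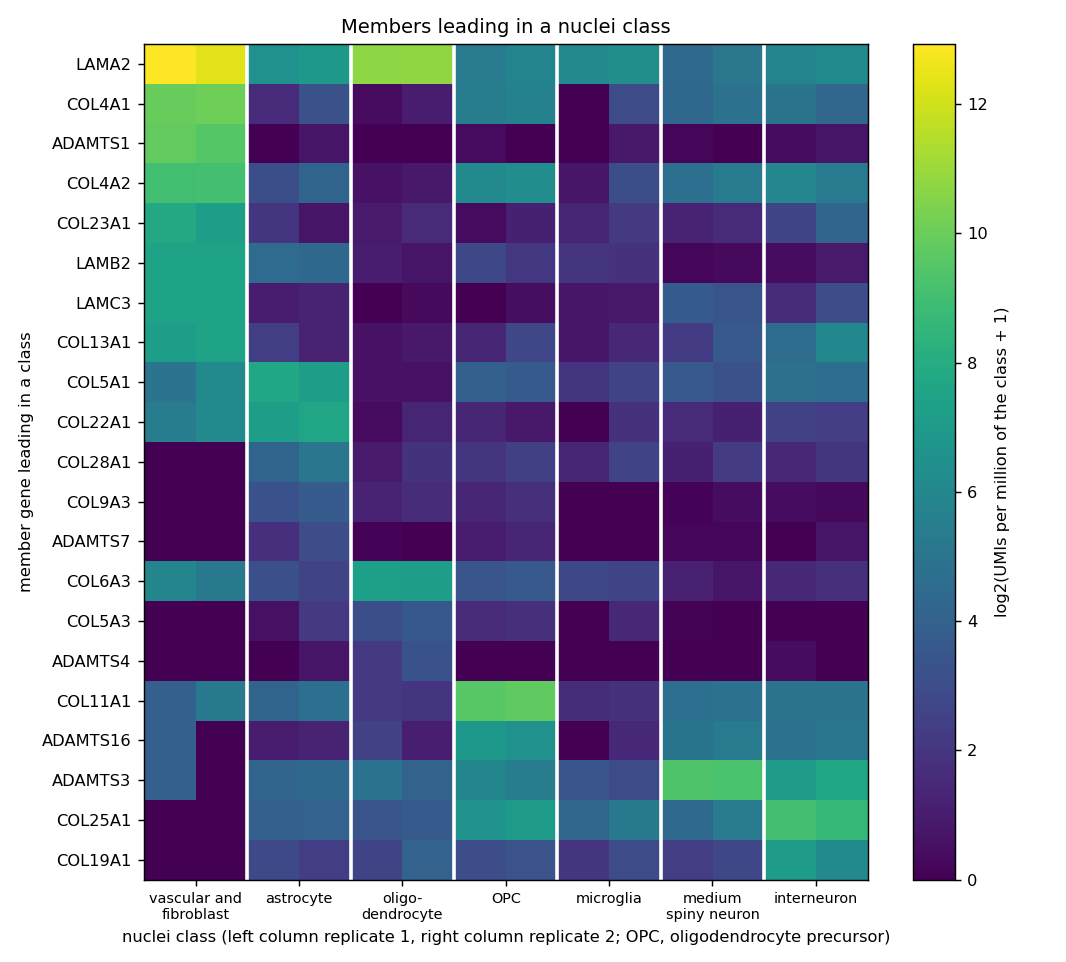
Heat map of 21 of the 22 leading members (rows, grouped by their leading class) in the 7 nuclei classes (column pairs, replicate 1 left and replicate 2 right), coloured by log2(CPM + 1). The 8 members at the top are brightest in vascular and fibroblast nuclei, LAMA2 is bright in oligodendrocytes too, and no member leads in microglia.

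Among the laminins, LAMA2, the alpha chain of muscle and vessel laminins whose loss causes a congenital muscular dystrophy with white matter changes, reached the highest levels. Vascular and fibroblast nuclei had 7805 (7153 to 8500) and 5243 (4425 to 6169) CPM. Oligodendrocytes had 1729 (1702 to 1755) and 1784 (1753 to 1815). In the other 5 classes LAMA2 lay between 21.1 and 118. Both raised classes stood apart from the rest in each library, and vascular and fibroblast nuclei exceeded oligodendrocytes 4.52-fold and 2.94-fold. Oligodendrocytes, with 3721 and 3786 nuclei, held 89.2% (Wilson 95% interval 88.7 to 89.6) and 87.9% (87.3 to 88.4) of the LAMA2 UMIs of all named nuclei. LAMA2 also made up 87.8% (87.4 to 88.3) and 86.9% (86.3 to 87.4) of the laminin UMIs of oligodendrocytes.

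Both oligodendrocyte clusters carried LAMA2. The cluster whose leading genes included PEX5L, OPALIN and LAMA2 itself had 1996 and 2193 CPM, and the cluster whose leading genes included ENPP6 and MOBP had 1389 and 1222. The first was higher in both libraries, by less than 2-fold. LAMC1, the gamma chain shared by most laminins, ran at 224 (214 to 234) and 249 (237 to 260) CPM in oligodendrocytes, and at 266 (158 to 421) and 72.3 (8.76 to 261) in vascular and fibroblast nuclei. The remaining classes lay between 43.6 and 103, so LAMC1 was raised in oligodendrocytes in both libraries and its vascular level rested on 18 and 2 UMIs.

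The other laminin chains divided among vessels, glia and neurons. LAMB2, a beta chain of vascular and synaptic basement membranes, had 177 (91.7 to 310) and 181 (58.7 to 422) CPM in vascular and fibroblast nuclei, followed by astrocytes with 22.3 and 19.6. LAMC3, a gamma chain, had the same 177 and 181 there, followed by medium spiny neurons with 12.5 and 9.29. Both calls rested on 12 and 5 UMIs and were lost without nuclei replicate 1. LAMA4, the alpha chain of endothelial laminin, was found in vascular and fibroblast nuclei at 340 (216 to 510) and 181 (58.7 to 422) and in oligodendrocyte precursors at 139 (126 to 153) and 160 (144 to 176). Those 2 classes exceeded every other class, where LAMA4 reached at most 40.7 (67.0 in interneurons of replicate 2 without the excitatory neuron nuclei), but their intervals overlapped in replicate 2.

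LAMB1, the widespread beta chain, was highest among the neural classes in medium spiny neurons, at 64.6 (62.2 to 67.0) and 75.1 (71.9 to 78.3) CPM, with interneurons next at 23.8 and 42.3 (23.4 and 25.7 without the excitatory neuron nuclei). Its vascular values of 73.9 and 36.2 rested on 5 and 1 UMIs. LAMA3, LAMA5 and LAMB3 led in no class, and outside vascular and fibroblast nuclei they ranged from 0 to 23.4 CPM.

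**Figure D2:**
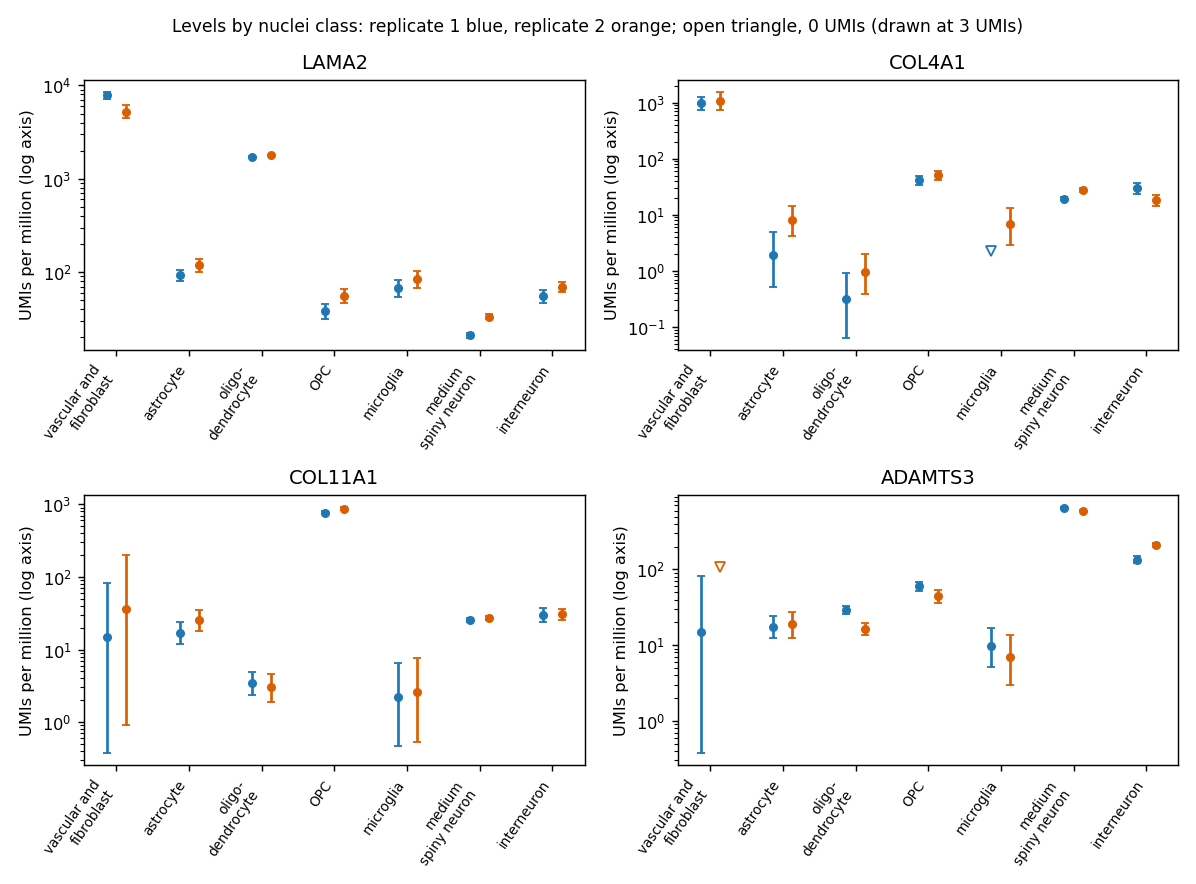
Levels of LAMA2, COL4A1, COL11A1 and ADAMTS3 (log axis, CPM) in the 7 nuclei classes, with 1 point per library (replicate 1 blue, replicate 2 orange) and exact Poisson 95% intervals. LAMA2 peaks in vascular and fibroblast nuclei and oligodendrocytes, COL4A1 in vascular and fibroblast nuclei, COL11A1 in oligodendrocyte precursors and ADAMTS3 in medium spiny neurons, in both libraries.

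Collagen IV is assembled from several possible chains, of which 5 were members. COL4A4 is not analysed here. COL4A1 and COL4A2, the chains of the common vascular network, led in vascular and fibroblast nuclei. COL4A1 had 976 (755 to 1241) and 1085 (732 to 1549) CPM there and 41.6 and 51.2 in oligodendrocyte precursors, the next class, a 23.4-fold and 21.2-fold gap. COL4A2 had 517 (360 to 720) and 542 (304 to 895), against 69.8 and 79.8 in the precursors, a 7.41-fold and 6.79-fold gap. The next class was the same for both genes in both libraries, and oligodendrocytes had under 1 CPM of either. Over the 14 combinations of class and library, the 2 genes, which are neighbours in the RefSeq annotation, had a Spearman correlation of 0.99. The median over all 2080 pairs of members was 0.13, and the points of any pair share their libraries and depth.

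COL4A5 and COL4A6, chains of a second type of network, had another distribution. COL4A5 had 67.6 and 61.6 CPM in oligodendrocytes, and COL4A6 had 71.1 and 77.4. Among the other neural classes COL4A5 reached at most 10.1 and COL4A6 at most 47.6, the latter in medium spiny neurons of replicate 2. In vascular and fibroblast nuclei COL4A5 had 103 and 36.2 and COL4A6 118 and 36.2. There 36.2 CPM is 1 UMI, with an interval up to 201, and the replicate 1 values also rest on few UMIs. The order of that class and oligodendrocytes was therefore not determined. These neighbouring genes had a Spearman correlation of 0.62 over the 14 points. COL4A3, a chain known from kidney and cochlea, was spread from 2.88 to 42.3 CPM over the 7 classes and led in none.

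The nuclei of the vascular and fibroblast class were not alike. By their own marker UMIs, 12 and 13 nuclei held mostly endothelial markers, 17 and 7 mostly mural or fibroblast markers and 10 and 7 mostly lymphocyte markers, and 2 nuclei of replicate 1 stayed unassigned because no list exceeded the next 2-fold, the margin asked. This division was made after the class had been seen, and members took no part in it. Mural or fibroblast nuclei had 23581 and 23085 CPM of member UMIs, endothelial nuclei 7651 and 5165, and the lymphocyte nuclei held 3 and 2 member UMIs in all.

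LAMA2 and ADAMTS1 lay on opposite sides of that division. LAMA2 was present in all 17 and all 7 mural or fibroblast nuclei, with 10 to 80 UMIs a nucleus in replicate 1 and 8 to 38 in replicate 2. Endothelial nuclei held 0 and 3 LAMA2 UMIs in total. ADAMTS1, a secreted protease that restrains angiogenesis, had 54 and 20 UMIs in endothelial nuclei and 0 in mural or fibroblast nuclei of both libraries, which allows up to 91.9 and 330 CPM there. COL4A1 occurred in both, with 47 and 21 UMIs in endothelial and 17 and 9 in mural or fibroblast nuclei. COL1A2 and COL3A1, chains of fibril-forming collagens, had 13 and 3 and 9 and 1 UMIs in mural or fibroblast nuclei and 0 in endothelial nuclei. COL5A2 (12 and 5), COL23A1 (13 and 4), COL13A1 (10 and 5) and LAMC3 (12 and 5) were likewise at 0 in endothelial nuclei. COL3A1, COL5A2 and COL13A1 are given because of these values, seen beforehand.

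**Figure D3:**
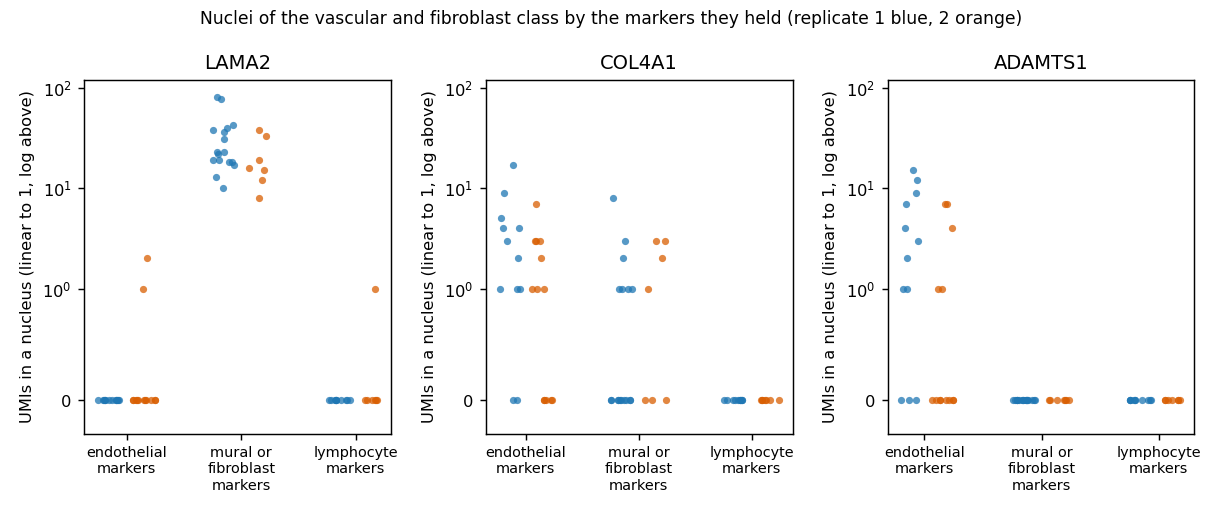
UMIs of LAMA2, COL4A1 and ADAMTS1 in single nuclei of the vascular and fibroblast class (axis linear to 1 and logarithmic above), 1 point per nucleus, by the markers a nucleus held (replicate 1 blue, replicate 2 orange). Every mural or fibroblast nucleus has at least 8 LAMA2 UMIs and none has ADAMTS1, while endothelial nuclei have at most 2 LAMA2 UMIs.

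Among the fibrillar collagens, COL11A1, a minor fibril chain, led in oligodendrocyte precursors. It had 766 (736 to 797) and 868 (832 to 906) CPM there and at most 36.2 in any other class, a gap of 25.6-fold and 24.0-fold over the next class. COL5A1, which controls fibril diameter, led in astrocytes with 206 (187 to 226) and 145 (126 to 166), where its margin in replicate 2 was 2.00-fold. The call was lost in 5 of 10 alternatives: with doublets kept, with members among the variable genes, at Leiden resolution 1.0, with nuclei of lymphocyte markers left out and at 4-fold. COL5A2, its partner chain, had 113 and 116 in astrocytes and 177 and 181 in vascular and fibroblast nuclei. COL5A3 had 7.52 and 10.7 CPM in oligodendrocytes, its highest level outside vascular and fibroblast nuclei, a call lost with doublets kept. The 3 collagen V chains had their highest neural levels in astrocytes or oligodendrocytes.

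COL1A1 and COL1A2, which together form collagen I, were scarce and unequal. COL1A1 had 32 UMIs over both nuclei libraries, 3 and 2 of them in vascular and fibroblast nuclei. COL1A2 had 192 (102 to 329) and 108 (22.4 to 317) CPM in that class and 108 (90.8 to 127) and 74.7 (59.8 to 92.1) in microglia, where COL1A1 had 1 and 2 UMIs in all. In the remaining classes COL1A2 reached at most 7.93. Microglia, the class poorest in matrix genes, held 144 and 87 COL1A2 UMIs, more than any other named class. COL24A1, a fibrillar collagen of bone, had 124 and 104 CPM in medium spiny neurons and 60.2 and 104 in interneurons, with no other class above 22.7. Without the excitatory neuron nuclei, which had 223 and 184, interneurons had 27.7 and 36.2.

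Fibril-associated collagens led in 2 classes. COL22A1, a collagen of tissue junctions, had 153 (137 to 171) and 202 (179 to 226) CPM in astrocytes, against 44.3 and 72.3 in vascular and fibroblast nuclei from 3 and 2 UMIs. COL9A3, a chain of cartilage collagen IX, was highest outside vascular and fibroblast nuclei in astrocytes, at 8.55 and 12.1. COL19A1, a collagen known from brain interneurons, led in interneurons at 134 (121 to 149) and 72.3 (64.5 to 80.7), or 159 and 122 without the excitatory neuron nuclei. Its UMIs came from the cluster led by KIT, LHX6 and NKX2-1 (161 and 82.7 CPM, or 199 and 161 without those nuclei) and were nearly absent from the cluster led by NOS1 and NPY (2.28 and 5.29). COL21A1 had 72.2 and 72.4 in medium spiny neurons in both libraries, but 102 and 26.3 in astrocytes.

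Among the remaining collagens, COL6A3, a chain of the microfibrillar collagen VI, led in oligodendrocytes with 158 (150 to 166) and 150 (141 to 159) CPM, and that class held 92.8% (91.4 to 93.9) and 93.8% (92.3 to 95.05) of its UMIs. The other measured collagen VI genes differed: COL6A2, a chain that assembles with it, was highest among neural classes in oligodendrocyte precursors at 17.6 and 27.4, COL6A5 never exceeded 3.97 and COL6A6 was spread from 2.88 to 36.2. COL6A1 is not analysed here. COL25A1, a membrane collagen found in amyloid plaques, led in interneurons at 540 (513 to 568) and 391 (372 to 410), followed by oligodendrocyte precursors at 93.8 and 129. The KIT and LHX6 cluster (537 and 363, or 636 and 477 without the excitatory neuron nuclei), the NOS1 and NPY cluster (581 and 568) and the SLC5A7 cluster (85.0 and 484, from 2 and 11 UMIs) all held it. COL23A1, a membrane collagen, led in vascular and fibroblast nuclei at 222 and 145 from 15 and 4 UMIs. COL13A1, another membrane collagen, led there at 148 and 181 from 10 and 5 UMIs. Both calls were lost without nuclei replicate 1, where these counts fall below the 10 UMIs asked. COL28A1 was highest outside vascular and fibroblast nuclei in astrocytes, at 17.1 and 32.4.

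Among the ADAMTS proteases that cleave lecticans, ADAMTS1 was nearly limited to vascular and fibroblast nuclei. Its level there was 916 (703 to 1175) and 723 (442 to 1117) CPM from 62 and 20 UMIs, and every other class had 5 UMIs or fewer in each library. ADAMTS9, chosen after its values were seen, had 455 (431 to 479) and 414 (389 to 441) in oligodendrocyte precursors and 310 (192 to 475) and 181 (58.7 to 422) in vascular and fibroblast nuclei, with at most 16.2 elsewhere. Within the latter it had 16 and 5 UMIs in endothelial nuclei and 2 and 0 in mural or fibroblast nuclei. ADAMTS4, a lectican-cleaving enzyme, was highest outside vascular and fibroblast nuclei in oligodendrocytes, at 3.45 (2.37 to 4.84) and 8.41 (6.43 to 10.8). ADAMTS20 had 181 and 169 in medium spiny neurons and 69.6 and 153 in interneurons. Most of the latter lay in the excitatory neuron nuclei (320 and 310), without which interneurons had 19.5 and 20.6. ADAMTS15, also outside the naming rule, never exceeded 14.8.

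ADAMTS3, a procollagen N-proteinase that also activates the lymphatic growth factor VEGFC and cleaves reelin, had 31363 and 18807 nuclei UMIs, the most of any member in replicate 1 and next to LAMA2 in replicate 2. It led in medium spiny neurons with 653 (645 to 660) and 592 (583 to 601) CPM, against 134 (121 to 148) and 211 (197 to 225) in interneurons and at most 59.5 in any other class. All 3 medium spiny neuron clusters carried it: 540 and 543 in the EBF1 cluster, 736 and 675 in the DRD2 cluster and 827 and 483 in the cluster led by GALNTL6 and ALK. The call was lost at 4-fold and, with ADAMTS3 still highest there, when doublets were kept or at least 500 genes per nucleus were asked. With doublets kept or 500 genes asked, a cluster with GALNTL6 and ALK among its leading genes was named interneuron. The other N-proteinases were scarce: ADAMTS2 reached at most 29.6 and ADAMTS14 had 1 UMI in all nuclei.

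The other ADAMTS genes were spread over glia and neurons. ADAMTS16 led in oligodendrocyte precursors at 117 (105 to 129) and 91.3 (79.7 to 104), and ADAMTS7 was called in astrocytes at 2.37 and 7.42 from 5 and 11 UMIs, where a count of 0 in microglia of replicate 1 allows 2.24. The ADAMTS16 call was lost with doublets kept, and the ADAMTS7 call with the mean over nuclei or without nuclei replicate 2. ADAMTS19 had 196 and 185 in oligodendrocyte precursors and 97.6 and 121 in medium spiny neurons. ADAMTS17 was broad, with 345 and 316 in astrocytes, 269 and 544 in interneurons (308 and 407 without the excitatory neuron nuclei), 264 and 243 in oligodendrocyte precursors and 143 and 138 in oligodendrocytes. Of the ADAMTS-like genes, ADAMTSL1 was highest in medium spiny neurons in replicate 1 (51.3) and in interneurons in replicate 2 (155, or 105 without the excitatory neuron nuclei), so its order was not stable.

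Genes that work with the members were read from lists of partners. Lecticans and their partners, which ADAMTS enzymes cut or bind beside, led in a class for 7 of the 8 genes in the files, where 14.0% of all genes that could be called led in some class: VCAN, BCAN, ACAN, HAPLN1 and TNR in oligodendrocyte precursors, HAPLN2 in oligodendrocytes and RELN in medium spiny neurons. VCAN and TNR were among the markers that named the precursor class, so their calls there are no independent result. Partner genes, unlike the members, were not left out of the clustering. Of 13 receptors of collagens and laminins, 6 led, against the same 14.0%: the integrin genes ITGA1, ITGA6 and ITGB1 in vascular and fibroblast nuclei, ITGA7 in astrocytes, ITGA11 in medium spiny neurons and DDR2, a collagen-binding kinase, in oligodendrocytes. Of 22 collagen-modifying enzymes and chaperones in the files, 21 could be called and 5 led, against the same 14.0%: LOXL1 and P3H4 in astrocytes, COLGALT1 and P3H2 in microglia, and COLGALT2 in vascular and fibroblast nuclei. Among 7 other basement membrane genes only SPARC led, in astrocytes, and among 3 inhibitors of metalloproteinases only TIMP3, in vascular and fibroblast nuclei. SPARC had 103 and 96.4 CPM in astrocytes and 44.3 and 36.2 in vascular and fibroblast nuclei. The latter values are 3 and 1 UMIs, with intervals up to 130 and 201, so the order of these classes was open. By the limits that a count of 0 in vascular and fibroblast nuclei allows, the calls of ACAN and P3H4 in both libraries, and of COLGALT1, HAPLN1, HAPLN2, ITGA7, ITGA11 and LOXL1 in replicate 2, could not be placed against that class.

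Among the members that differed widely between the 2 nuclei libraries was COL14A1, a fibril-associated collagen. In medium spiny neurons it had 1304 UMIs in replicate 1, or 30.0 (28.4 to 31.6) CPM, and 7512 in replicate 2, or 270 (263 to 276) CPM. The gap of 3.17 on the log2 scale placed COL14A1 at position 71 among the 15597 genes with at least 20 UMIs in that class. It was present in 489 of 1378 and 1167 of 1374 medium spiny neuron nuclei, although the median nucleus of replicate 2 held fewer UMIs (16409.5 against 29182). COL14A1 was higher in replicate 2 in every class but vascular and fibroblast nuclei, where it had 9 and 1 UMIs. Its lowest ratio among those 6 classes was 1.51 on the log2 scale, in astrocytes. There is 1 library per pool, so animals, tissue pieces and library preparation cannot be told apart.

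COL14A1 was not alone. In medium spiny neurons, 17 of 56 members with at least 20 UMIs differed 2-fold or more between the libraries (17.0% of all genes did), 16 of them higher in replicate 2 (14.7%). In astrocytes 10 of 39 members differed so (7.34%), in interneurons 11 of 48 (10.6%), in oligodendrocytes 12 of 41 (10.8%), in oligodendrocyte precursors 9 of 44 (8.72%) and in microglia 3 of 10 (7.45%). Those higher in replicate 2 numbered 8 in astrocytes (4.76%), 10 in interneurons (6.57%), 10 in oligodendrocytes (8.44%), 6 in oligodendrocyte precursors (7.25%) and 3 in microglia (4.49%). In vascular and fibroblast nuclei 2 of 8 differed (20.0%), and 0 were higher in replicate 2 (6.63%). Without the excitatory neuron nuclei, 11 of 43 members differed in interneurons (8.33%), 7 of them higher in replicate 2 (5.9%).

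**Figure D4:**
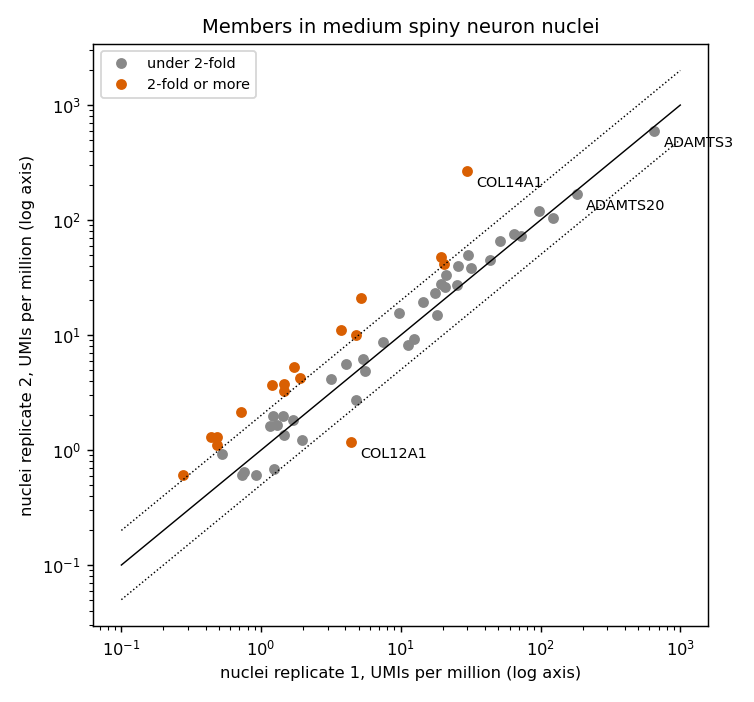
Levels of the 56 members with at least 20 UMIs in medium spiny neuron nuclei, replicate 1 (x axis) against replicate 2 (y axis), both in CPM on log axes. The solid line marks equal levels and the dotted lines a 2-fold difference. COL14A1 lies far above the line with 30.0 against 270, and 16 of the 17 members outside the dotted lines are higher in replicate 2.

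The comparison the series was built for sets nuclei against whole cells. UMIs were summed over all barcodes of a library and tested with edgeR's quasi-likelihood test with composition factors, so fold changes are log2 values of nuclei over whole cells, and adjusted p-values are Benjamini-Hochberg values over all 15781 genes tested. In such sums, fewer cells of a type and less RNA per cell cannot be told apart. The sources used here do not say whether intronic reads were counted, and the whole cells were counted with Cell Ranger 6.0.1 and the nuclei with 7.0.0, so program version and kind of library cannot be told apart either. Of the 70 members, 64 could be tested: 31 were higher in nuclei (29.8% of all genes were), 2 were higher in whole cells (22.4%) and 31 did not pass. The median was 2.05 over the members tested and 0.61 over all genes. The member counts rest on the 2 whole cells libraries, where 49 members had 10 UMIs or fewer and 12 had 0. Leaving out a library leaves 1 in its group, which is then assumed to vary like the other group's 2 libraries. Without whole cells replicate 2, 14 of 66 members were higher in nuclei (18.7% of all genes) and 4 in whole cells (8.4%), a share higher in nuclei near that of all genes. Without nuclei replicate 2 the counts were 20 (19.4%) and 2 (17.4%) of 64, without whole cells replicate 1 they were 38 (32.5%) and 5 (23.1%) of 66, and without nuclei replicate 1 they were 23 (18.8%) and 4 (16.7%) of 65.

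By family, 10 of 15 ADAMTS proteases tested were higher in nuclei and 0 lower, both ADAMTS-like genes tested were higher, 15 of 37 collagens were higher and 1 lower, and 4 of 10 laminins were higher and 1 lower. Over all genes these shares were 29.8% and 22.4%. With libraries paired by animal pool, 10 collagens and 2 laminins were higher, and the other family counts did not change, against paired shares of 20.4% higher and 14.2% lower over all genes. For genes with 0 UMIs in both whole cells libraries only a lower bound of the difference can be given, with 3 UMIs in place of the whole cells sum. ADAMTS17 had 0 and 0 UMIs in whole cells against 5306 and 5950 in nuclei, at least 72.9-fold higher (adjusted p = 7.2e-09). COL26A1 had 0 and 0 against 882 and 872, at least 11.4-fold higher (adjusted p = 2.2e-05). COL4A3 had 0 and 0 against 687 and 827, at least 9.81-fold higher (adjusted p = 5.3e-05). ADAMTS12 (505 and 484 UMIs in nuclei) and ADAMTS2 (305 and 307) were at least 6.41-fold and 3.96-fold higher, with adjusted p-values of 0.000385 and 0.00259. Each of these 5 genes was uncounted in whole cells and had at least 305 UMIs in either nuclei library. Without whole cells replicate 2 only ADAMTS17 of the 5 still passed, and COL26A1, COL4A3, ADAMTS12 and ADAMTS2 had adjusted p-values of 0.0903, 0.124, 0.252 and 0.404.

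Among members counted in both whole cells libraries, LAMA2 had 20 and 80 UMIs in whole cells against 21970 and 19026 in nuclei, a log2 difference of 2.36 ± 0.57 (SE, adjusted p = 0.000759). ADAMTS3 had 2 and 84 against 31363 and 18807, a difference of 3.72 ± 0.57 (SE, adjusted p = 2.1e-06). LAMC1 had 3 and 41 against 5516 and 4407, a difference of 2.14 ± 0.48 (SE, adjusted p = 0.000334). These 3 genes were higher in nuclei in both pools. COL11A1, with 6 and 86 against 4356 and 3787 UMIs, did not pass (0.81 ± 0.43, SE, adjusted p = 0.115), although it did without whole cells replicate 1 (0.90, adjusted p = 0.00268), where the spread comes from the nuclei libraries alone. COL14A1 passed at 1.66 ± 0.61 (SE, adjusted p = 0.0221) with 5 and 62 against 1521 and 8579 UMIs, but not when libraries were paired by animal pool (adjusted p = 0.193), and without nuclei replicate 2 its value was -0.54. COL21A1 was likewise lost under pairing (2.21 ± 0.51, SE, adjusted p = 0.000498, and 0.0564 when paired), and also without whole cells replicate 2 (adjusted p = 0.0992) or nuclei replicate 1 (0.113).

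LAMB2 and COL18A1 went the other way. LAMB2 had 4 and 88 UMIs in whole cells against 153 and 89 in nuclei, or 31.8 and 35 CPM of the non-mitochondrial UMIs against 2.19 and 1.76. Both whole cells libraries lay above both nuclei libraries on that scale, and the log2 difference was -4.20 ± 0.47 (SE, adjusted p = 1.3e-08). Scaled by library size alone, LAMB2 stayed lower in nuclei at -1.13 but did not pass (adjusted p = 0.0701). COL18A1, the gene of the vessel collagen that yields endostatin, had 1 and 6 UMIs against 51 and 26, a difference of -2.33 ± 0.91 (SE, adjusted p = 0.0304), which turned to 0.71 with library size alone. The call was also lost without whole cells replicate 1 (adjusted p = 0.0911), whole cells replicate 2 (0.308) or nuclei replicate 2 (0.09503), with DESeq2 (0.112), without a filter on low counts (0.0730) and with mitochondrial genes left out (0.0597). COL1A1, with 3 and 4 UMIs in whole cells against 20 and 12 in nuclei, was too low to be tested, but was called lower in nuclei in 5 alternatives, with log2 values from -6.09 to -3.49. COL16A1, a fibril-associated collagen with 8 and 172 UMIs against 2552 and 1993, did not pass (-0.88 ± 0.41, SE, adjusted p = 0.0679) and was called lower in 3 alternatives, though at 2.15 it was higher in nuclei with library size alone. COL11A2 was called lower in 3 alternatives and COL3A1 in 2. Some alternatives also called ADAMTS1, COL1A2, COL2A1 or COL5A3 lower, ADAMTS1 only in fits with a library left out. Scaling by library size alone moved the median of all genes from 0.61 to 3.66, and 58 members were then higher in nuclei (79.4% of all genes) and 0 lower. With mitochondrial genes left out before scaling by library size, 33 were higher (32.5% of all genes).

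**Figure D5:**
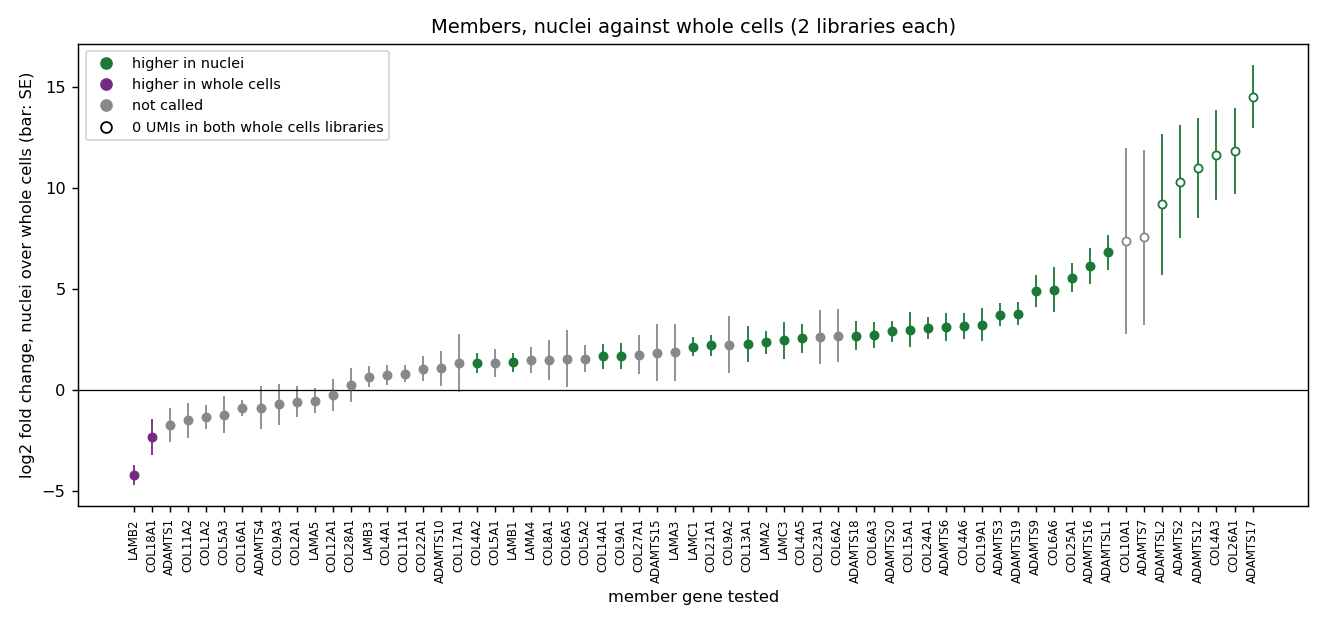
Log2 fold change of nuclei over whole cells with its SE for 63 of the 64 members tested, in rising order; green, higher in nuclei; purple, higher in whole cells; grey, not passing. Open circles are members with 0 UMIs in both whole cells libraries, whose fitted values depend on the prior count and are no bounds. LAMB2 and COL18A1 are the 2 members called higher in whole cells.

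The chains of collagen IV and of the laminins were also set side by side. Of the collagen IV genes, COL4A2 (1.32), COL4A5 (2.55), COL4A6 (3.16) and COL4A3 (0 UMIs in whole cells) were higher in nuclei and COL4A1 did not pass (0.74 ± 0.50, SE, adjusted p = 0.215). With libraries paired by animal pool, COL4A2 (adjusted p = 0.165) and COL4A5 (0.0625) did not pass either. Among the laminins, LAMA2, LAMC1, LAMB1 (1.37) and LAMC3 (2.45) were higher in nuclei, LAMB2 was lower, and LAMA3, LAMA4, LAMA5 and LAMB3 did not pass, with values between -0.53 and 1.85. LAMB1 (adjusted p = 0.121) and LAMC3 (0.142) did not pass when paired. The difference between chains was not tested. Of the genes on the partner lists, read against 29.8% of all genes higher in nuclei and 22.4% lower, 6 of 20 collagen-modifying enzymes were higher in nuclei and 6 lower, 2 and 1 of 13 receptors, 1 and 1 of 7 other basement membrane genes, 2 and 1 of 8 lecticans and partners, and 1 and 1 of 3 inhibitors. SPARC, a collagen-binding matrix protein, had 7 and 180 UMIs in whole cells against 453 and 378 in nuclei, a log2 difference of -3.35 ± 0.42 (SE), lower in nuclei like LAMB2.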

How the data were processed

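Single-cell RNA sequencing libraries from whole cells (2) and nuclei (2) of sheep striatum were deposited as UMI counts per gene and barcode, which the authors made with Cell Ranger 6.0.1 (whole cells) and 7.0.0 (nuclei), per the file headers. The submitters' processing notes name Cell Ranger 2.1.1 and 6.0.1 and STAR 2.7.2a. Genome build, annotation and intron counting are not given in the sources used here. The members, partner lists and naming rule were chosen with earlier results of these data known. The naming rule took the 12 members with the most nuclei UMIs, up to 5 leading members per class, up to 5 members with the largest called difference in each direction, and all measured chains of collagens I, IV and VI and laminins. Of the members, 1 is counted but not reported by name here.

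Nuclei needed 200 genes or more and no more than 5% mitochondrial UMIs. Scrublet called 390 of 8700 and 0 of 8388 as doublets, so the highest 8% of doublet scores were left out of each library. Counts scaled to 10000 per nucleus, 2000 variable genes other than the members, 30 principal components and 15 neighbours were used, and Leiden communities at resolution 0.5 (scanpy 1.11.5) gave 17 clusters. Clusters were named from raised markers with thresholds set after the data were seen.

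Counts summed per library were tested with edgeR 4.0.16 (quasi-likelihood, R 4.3.3), with DESeq2 1.42.0 as an alternative. Libraries carry 1 animal pool each, and with 2 per group p-values measure only the spread between these libraries. Titles give the same animals to replicates of 1 number, and the deviations of same-numbered libraries had a correlation of -0.0477 over 1791 genes. On simulated data for the nuclei and whole cells comparison (15781 genes), 46.2% of 4-fold and 95.7% of 16-fold changes were recovered, with 5 false calls among 15371 unchanged genes. The simulation drew all libraries from the same pooled gene profile, with the same spread for every gene. Real whole cells libraries were mostly mitochondrial, so the simulated ones held more UMIs of other genes. These rates therefore do not carry over to the real comparison. Other clustering settings, scalings, filters and left-out libraries were tried as alternatives.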

Additional observations from a re-analysis of the deposited data

Results flagged for a closer look

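For 5 members the ratio of nuclei to whole cells had opposite signs in the 2 animal pools. These ratios use the composition factors; scaled by library size alone, 3 of the 5 kept opposite signs, while COL14A1 (2.27 and 5.70) and COL5A1 (1.96 and 5.32) were higher in nuclei in both pools. The difference between pools was not tested, and each pool has 1 library of each kind. COL14A1 had a log2 ratio of -0.40 in the pool of replicate 1 and 2.49 in the pool of replicate 2, with 5 and 62 UMIs in whole cells against 1521 and 8579 in nuclei. COL5A1 had -0.71 and 2.104, with 5 and 7 against 1227 and 743. COL11A2 had -3.89 and 0.80, from 9 and 6 against 244 and 258. ADAMTS4 had -3.29 and 0.055, from 1 and 3 against 41 and 77. COL5A3 had -3.55 and 0.0059, from 3 and 5 against 103 and 124. The last 4 rest on 9 UMIs or fewer in each whole cells library.

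ADAMTS7, a vascular protease, was most frequent in nuclei that entered no comparison. In the unnamed cluster led by NDST4, ADARB2 and TOX3 it had 21.9 and 15.4 CPM in replicates 1 and 2, from 17 and 5 UMIs. Its highest level in a named class was 2.37 and 7.42, in astrocytes.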

How the results depend on the processing

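The count of members higher in nuclei than in whole cells was 31, and it moved to 58 with library size alone (79.4% of all genes) and ranged from 14 to 38 when 1 library was left out. It was 36 of 70 without a filter on low counts (24.6% of all genes), 24 with DESeq2 (28.6%), where 11 members had no adjusted p, 21 of 63 with barcodes of at least 200 genes (27.4%), and 33 (32.5%) with mitochondrial genes left out, an alternative added after the data were seen. The count higher in whole cells was 2, and it moved to 0 with library size alone and 5 with barcodes of at least 200 genes (11.7%), with a range of 2 to 5 when 1 library was left out. With the replicate number as a block, which pairs libraries by animal pool, 24 members were higher in nuclei (20.4% of all genes) and 2 in whole cells (14.2%). All 26 were among the 33 called without it, and COL4A2, COL4A5, COL9A1, COL14A1, COL21A1, LAMB1 and LAMC3 lost their call. COL14A1 ranged from -0.54 (without nuclei replicate 2) to 2.21 when 1 library was left out, and COL18A1 turned to 0.71 with library size alone. Members leading in any class moved from 22 to 11 at 4-fold above the next class, and ranged from 30 to 31 when 1 nuclei library was left out, where 1 library suffices for a call. Those leading in vascular and fibroblast nuclei numbered 8, with 4 to 10 when 1 nuclei library was left out. Without the excitatory neuron nuclei of the interneuron class 26 members were leading, and the number rose from 2 to 4 in interneurons and from 2 to 4 in medium spiny neurons. Of the 22, 12 kept their call under every alternative but the 4-fold one. The cause of these changes was not tested. Depth limits the whole cells, with 92 and 1066 member UMIs, and the vascular and fibroblast class, with 956 and 280.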

Other observations

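LAMA2 and ADAMTS19 also reached high levels in nuclei that no class name covered. The unnamed cluster led by CCL2, NPSR1 and IL1B came almost wholly from replicate 2 (61 nuclei against 2), and LAMA2 had 0 and 936 CPM there, so that level is known from 1 library. ADAMTS19, a protease highest in oligodendrocyte precursors among the named classes, had 328 and 465 CPM in the unnamed cluster led by TRDN, GPC3 and TOP2A, a gene of dividing cells. That was above its 196 and 185 in the precursors in both libraries. Both genes were chosen after their values were seen, and neither difference was tested.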
